A study of Mus musculus with 32 samples.

Results

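The 28 genes described here make cholesterol and fatty acids or control that synthesis, and they were taken from the table of gene expression by gene name, 28 of its 55492 rows. They comprised 7 genes of the mevalonate steps (Acat2, Hmgcs1, Mvk, Pmvk, Mvd, Idi1 and Fdps), 3 of the squalene and lanosterol steps (Fdft1, Sqle and Lss), 8 of the later sterol steps (Cyp51, Tm7sf2, Msmo1, Nsdhl, Hsd17b7, Ebp, Sc5d and Dhcr7), 4 sensors, factors and carriers of sterols (Srebf1, Srebf2, Insig1 and Stard4) and 6 genes of fatty acid synthesis and desaturation (Acly, Acaca, Fasn, Elovl6, Scd1 and Scd2). Messenger RNA was sequenced from mouse embryonic stem cells and from the retinal organoids grown from them, in a study of METTL3, the enzyme that writes m6A on RNA in the nucleus. The 32 libraries came from 4 lines on days 0, 2, 4 and 6, with 2 libraries for each line and day. The day 0 libraries are labelled embryonic stem cells and the later ones organoids.

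The wild-type line (WT) carries the Rx:GFP reporter, in which the eye field gene Rx drives a fluorescent protein. The second line is labelled Mettl3 KO (KO). The other two lines are that knockout with an overexpressed fusion of wild-type METTL3 to GRBD, either without dexamethasone (no Dex) or with dexamethasone at 10 µM (Dex), a synthetic glucocorticoid. All lines were differentiated in medium with 5% KSR, and the organoids of days 2 to 6 were labelled as treated with AGN, which the protocol gives at 0.1 µM. The protocol lists dexamethasone for 2, 4 and 6 days of organoid culture, whereas the labels call the day 0 stem cells of the Dex line treated as well, and grouping here rests on the labels. Dexamethasone was given only to cells with the fusion, so the effects of the drug and of the fusion in its presence cannot be told apart. The labels do not say how many clones stand behind a line, nor that the 2 libraries of a group came from separate cultures (they describe independent rounds of library preparation and sequencing), so p-values measure the spread between these libraries, which may be technical.

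Cholesterol is built from acetyl-CoA: the mevalonate steps make isoprenoid units, these are joined to squalene, squalene is closed into lanosterol, and the later steps remove methyl groups and shift double bonds until cholesterol remains. Fatty acid synthesis draws on the same acetyl-CoA, which Acly releases from citrate, Acaca carboxylates and Fasn strings into palmitate, while Elovl6 lengthens and Scd1 and Scd2 desaturate the product. The transcription factors SREBP1 and SREBP2, encoded by Srebf1 and Srebf2, switch on both pathways when the membranes of the endoplasmic reticulum hold little sterol, and Insig1, itself a target of SREBP, holds them back when sterol is plentiful. Developing neural tissue makes most of its own cholesterol, which it needs for new membrane and for the modification of Hedgehog proteins.

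Levels are FPKM, fragments scaled for gene length and library size, so they can be compared between genes. Changes were fitted on log2(FPKM + 1) with limma in 1 model of all 16 groups over 16276 genes, and a gene was called higher or lower where its Benjamini-Hochberg adjusted p was under 0.05. The +1 makes changes of the lowest genes smaller than their fold changes. All 28 genes passed the filter of 1 FPKM in at least 2 libraries. Each change below is the difference of the first group named minus the second, with its standard error (SE). Every one of the 28 genes that was called between 2 groups also had libraries that did not overlap. Remarks below on libraries lying apart therefore describe the values and add no support to a call. The share without overlap among all genes was not computed.

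Depth was estimated at 27.8 M to 50.4 M fragments per library (median 36.2 M), from the size of the steps between low values. Duplicates had a Pearson r of 0.9922 to 0.9955 across genes, and the WT pair of day 0 differed most, with a median absolute difference of 0.0972 log2 units against at most 0.071 in the other pairs. Mettl3 itself was not called lower in KO on any day: on day 0 it stood at 34.97 FPKM ± 2.58 (SD, n = 2) in WT and 43.36 ± 0.672 (SD, n = 2) in KO, higher by 0.30 ± 0.06 on the log2 scale (SE, limma adjusted p = 0.000417), and its changes of -0.03, 0.12 and 0.07 on days 2, 4 and 6 were not called. A knockout allele can still be transcribed, so the transcript level is no check of those labels, and KO below stands for the libraries labelled KO. Eye field genes, which should mark the organoids, had summed levels of 649.8 to 684 FPKM in WT on day 6, 117 to 118 in KO, 182.32 to 186 without Dex and 417 in both libraries with Dex. Pluripotency genes summed to between 3350 and 3661 FPKM in every library of day 0 and to less on each later day of each line. Markers of extraembryonic endoderm summed to 16.4 to 51.7 FPKM in WT and to 1.01 to 6.07 in the other lines. In such bulk samples fewer cells of a type and less RNA per cell cannot be told apart. Genes on chromosome 8 had median KO minus WT changes of 0.005, 0.24, 0.34 and 0.35 on days 0, 2, 4 and 6, which bears on Msmo1 and Mvd, the 2 of the 28 genes that lie there.

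Promoter sequences show what several of these genes have in common outside the expression data. RefSeq promoters on GRCm38.p6 were at hand for 22 of the 28 genes, and the 250 bases before the start site were searched on both strands for TCACNCCAC, a sterol regulatory element that SREBP binds, for CCAAT, bound by NF-Y, and for GGGCGG, bound by Sp1. Matches were counted for each motif separately, also where they shared letters. CCAAT was present in 17 of the 22 (77.27%, against 33.85% of all 32851 promoters in the table), GGGCGG also in 17 (77.27% against 32.742%), both together in 14 (11.013% of all promoters), and TCACNCCAC in 1 (1.053% of all promoters). Each gene had only the start nearest that in GENCODE, whereas the 32851 were not limited to 1 start per gene or to expressed genes. The start used lay 65766 bases from that in GENCODE for Acaca and 523 for Tm7sf2. All 250 bases lay in annotated exons for Idi1 and Tm7sf2. For 19 of the 22 the bases after the start were found in a transcript of the gene. The 4 printed here have both CCAAT and GGGCGG and a RefSeq start within 30 bases of the start in GENCODE. They also have at most 30 of their bases in annotated exons. They are given 5′ to 3′ on the strand of the gene, with every match in capitals, where ATTGG and CCGCCC are CCAAT and GGGCGG read on the other strand. Hmgcs1 lies at chr13:119690101-119690350 on the plus strand and holds TCACCCCAC at -137 to -129, Lss at chr10:76531355-76531604 on the plus strand, Mvd at chr8:122443423-122443672 on the minus strand and Ebp at chrX:8193513-8193762 on the minus strand.
Hmgcs1: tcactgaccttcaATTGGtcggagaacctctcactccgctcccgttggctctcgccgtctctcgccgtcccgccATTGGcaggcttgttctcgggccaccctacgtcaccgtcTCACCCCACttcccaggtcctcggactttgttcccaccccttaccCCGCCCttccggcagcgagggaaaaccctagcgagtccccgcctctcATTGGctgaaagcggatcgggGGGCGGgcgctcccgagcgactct
Lss: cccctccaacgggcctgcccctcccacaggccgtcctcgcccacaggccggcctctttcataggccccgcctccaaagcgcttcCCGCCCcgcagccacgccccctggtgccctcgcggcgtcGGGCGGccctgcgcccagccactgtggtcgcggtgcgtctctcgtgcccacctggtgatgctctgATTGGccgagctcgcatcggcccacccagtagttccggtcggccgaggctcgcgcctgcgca
Mvd: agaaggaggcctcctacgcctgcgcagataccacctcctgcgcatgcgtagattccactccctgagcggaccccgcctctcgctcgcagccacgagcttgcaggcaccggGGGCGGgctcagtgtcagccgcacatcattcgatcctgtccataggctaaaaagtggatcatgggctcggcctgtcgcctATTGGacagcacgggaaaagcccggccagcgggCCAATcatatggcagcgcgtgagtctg
Ebp: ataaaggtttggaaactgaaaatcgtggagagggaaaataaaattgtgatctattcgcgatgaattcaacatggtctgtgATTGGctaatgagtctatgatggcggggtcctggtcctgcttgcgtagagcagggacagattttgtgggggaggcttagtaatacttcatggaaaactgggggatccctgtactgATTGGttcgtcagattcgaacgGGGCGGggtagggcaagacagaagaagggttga
A match describes letters and not a bound site. Of the 4 genes printed, Hmgcs1, Lss and Mvd had a Pearson r of 0.8, 0.877 and 0.83 with the rest of the 28 genes, and Ebp 0.082. This measure of likeness is described further on, and its link to the motifs was not tested.

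All 28 genes were expressed in every group. Over the 32 libraries mean levels ran from 208 FPKM for Fdps, which makes farnesyl diphosphate, to 3.66 FPKM for Hsd17b7, a reductase of the later sterol steps. After Fdps came Fasn at 133, the mevalonate kinase partner Pmvk at 99.5, the methylsterol oxidase Msmo1 at 98.9 and the desaturase Scd2 at 89.98 FPKM. Of the transcription factors, Srebf2 averaged 60.7 and Srebf1 33.5 FPKM. The ratio of the highest to the lowest group mean was widest for the desaturases, 4.92 for Scd2 and 4.79 for Scd1, both lowest in the no Dex stem cells. It was narrowest for Mvk, at 1.81. KO on day 4 held the highest group mean of 18 of the genes. Acat3 and Scd3, near copies of Acat2 and Scd1 to which reads could be misassigned, were far lower, with group means of up to 1.845 and 2.945 FPKM.

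In WT the sterol enzymes were lowest as a sum on day 2. The summed level of the 18 enzymes of the mevalonate, squalene and later steps was 947 and 932 FPKM in the 2 libraries of day 0, 694 and 694 on day 2, 1002 and 993 on day 4 and 778 and 774 on day 6. Day 2 was the lowest of the 4 days for 21 of the 28 genes. The 6 fatty acid genes summed to 304 and 309.5, 274 and 273, 393 and 388 and 389.6 and 381 FPKM on the same days. Their sum was thus highest from day 4 on. Acly, Acaca and Elovl6 each had their highest mean on day 0, whereas Fasn, Scd1 and Scd2 had it on day 4 or 6. Among the 28 genes day 0 was the highest day for 13, day 4 for 11 and day 6 for 4.

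**Figure D1:**
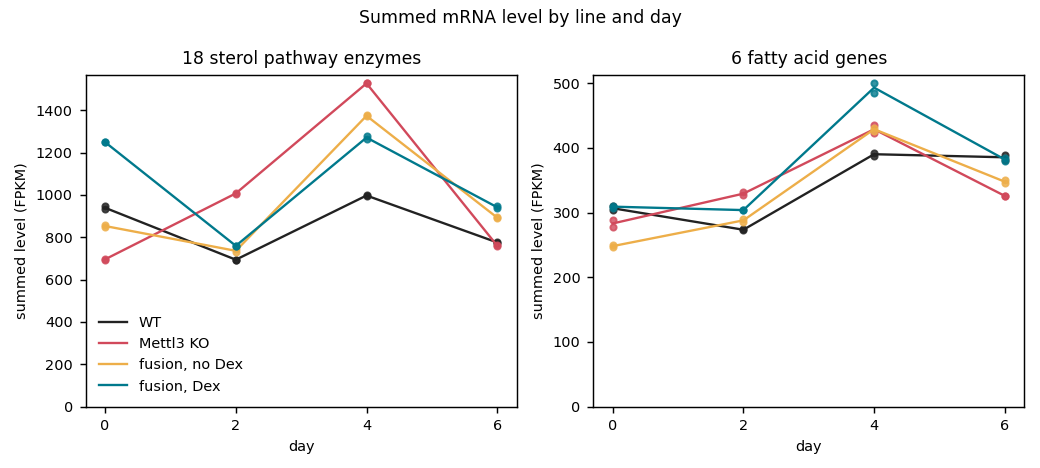
Summed FPKM of the 18 sterol pathway enzymes and of the 6 fatty acid genes (vertical axes, from 0) against day, with 1 point per library and lines through the mean of each line's 2 libraries. The sterol sum of WT dips to 694 and 694 FPKM on day 2, and KO rises from 694 and 698 on day 0 to 1527 and 1528 on day 4.

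From day 0 to day 2 of WT, 26 of the 28 genes fell and 1 rose, with a median change of -0.44, where 36% of all genes tested fell and 27.4% rose, with a median of -0.03. The largest falls were in Elovl6, from 28.1 and 27.3 to 8.91 and 8.94 FPKM in the 2 libraries of each day, a log2 change of -1.53, in Tm7sf2, a sterol reductase, from 19.5 and 17.6 to 9.22 and 8.49 FPKM (-0.99), and in the sterol isomerase Ebp, from 18.3 and 16.1 to 8.49 and 8.66 FPKM (-0.93). Fasn alone rose, from 87 and 93.8 to 120.2 and 118 FPKM (0.39). None of these pairs of groups overlapped.

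From day 2 to day 4 of WT, 27 genes rose and none fell at this threshold (median 0.48; 34.3% of all genes rose and 25.6% fell, median 0.04). The desaturases led: Scd2 went from 46.9 and 47.5 to 109 and 110.3 FPKM (1.20 ± 0.03 SE, limma adjusted p = 2.55e-17) and Scd1 from 12.8 and 13.1 to 27.4 and 28.1 (1.05). Hmgcs1, which condenses acetyl-CoA units ahead of mevalonate, went from 62.1 and 62.5 to 114 and 112 FPKM (0.85). The later libraries of each of these genes lay above both earlier ones.

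From day 4 to day 6 of WT the list parted: 4 genes rose and 15 fell (median -0.15; all genes 41.7% higher and 25% lower, median 0.10), and the split became 2 and 21 after rescaling by median of ratios. Scd2 rose further, from 109 and 110.3 to 157 and 161 FPKM (0.54 ± 0.03 SE, limma adjusted p = 2.95e-12), as did Insig1, from 35.5 and 35.7 to 43.4 and 44.5 (0.30). The sterol desaturase Sc5d went from 9.87 and 10.8 to 12.1 and 12.5 (0.23), a call lost on rescaling (adjusted p = 0.167) and without the WT day 4 replicate 1 (adjusted p = 0.0641). Fdps fell from 238 and 241 to 133 and 131 FPKM (-0.86), the mevalonate decarboxylase Mvd from 59.5 and 60.6 to 38.2 and 37.8 (-0.65) and the squalene synthase Fdft1 from 43.3 and 43.8 to 30.01 and 30.7 (-0.51). The days did not overlap in any of these 6 genes. Of the 7 mevalonate genes 6 fell and 1 rose, Acat2, from 77.5 and 79.1 to 90.7 and 91.1 FPKM (0.21), which was named after its values were seen and lost its call on rescaling (adjusted p = 0.0516).

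**Figure D2:**
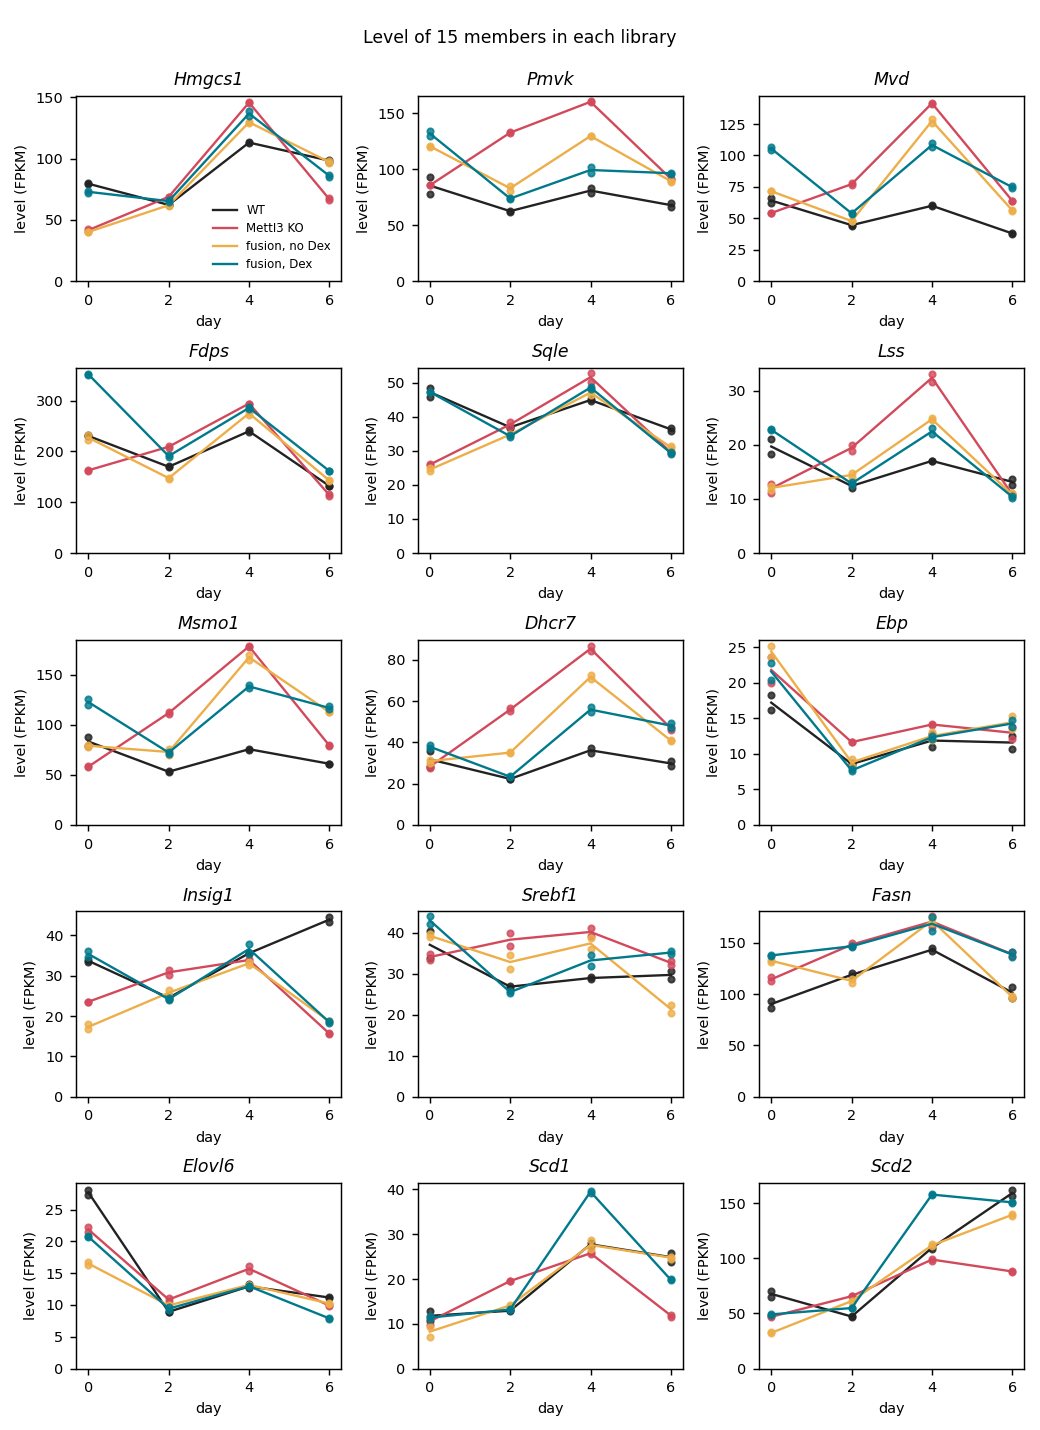
FPKM of 15 of the 28 genes (vertical axes) against day (horizontal axes), with 1 point per library and lines through the 2 library means of each line. Insig1 and Scd2 of WT climb to day 6, while Fdps and Mvd turn down after day 4, and Dhcr7 of KO peaks on day 4 at 84.3 and 86.6 FPKM.

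In the stem cells of day 0, the libraries labelled KO held less of most of these RNAs than WT. Of the 28 genes 22 were lower and 2 higher, with a median change of -0.40, where 29.8% of all genes were lower and 18.4% higher, with a median of -0.04. Lower were 6 of 7 mevalonate genes, all 3 squalene and lanosterol genes, 6 of 8 later sterol genes, 3 of 4 sensors and factors and 4 of 6 fatty acid genes. The summed level of the 18 enzymes was 947 and 932 FPKM in WT and 694 and 698 in KO.

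Hmgcs1 stood at 79.9 and 79.2 FPKM in the WT libraries and at 42.6 and 40.8 in KO, 0.524 times the WT mean (-0.92 ± 0.02 SE, limma adjusted p = 9.64e-16). The squalene epoxidase Sqle had 48.5 and 45.9 FPKM in WT and 25.8 and 26.1 in KO (-0.84 ± 0.03 SE, limma adjusted p = 6.08e-14). The lanosterol synthase Lss had 18.4 and 21 in WT against 11.1 and 12.8 FPKM in KO (-0.68 ± 0.06 SE, limma adjusted p = 2.61e-08). These 3 enzymes act early in the pathway or at the closure of the sterol rings, and their groups lay well apart. Fasn was higher in KO, 113 and 116 against 87 and 93.8 FPKM (0.34). Ebp was also called higher, 20.03 and 23.6 against 18.3 and 16.1 FPKM (0.32), although the call was lost without the WT day 0 replicate 2 (adjusted p = 0.0951), without the KO day 0 replicate 2 (adjusted p = 0.132) and when the 2 groups were fitted alone (adjusted p = 0.139). Beside these changes, extraembryonic endoderm markers summed to 16.4 to 16.9 FPKM in WT and 2.51 to 3.05 in KO on day 0. Of these markers 5 of 8 were lower, with Afp and Ttr at or near 0 in both lines. Of 6 neural genes 4 were higher in KO and 1 lower (median 0.30), and of 6 eye field genes 2 were higher and 0 lower. Both of the 2 mesendoderm genes tested were higher. Of 8 pluripotency genes 1 was higher and 3 lower, and of 4 pigment cell genes tested 2 were lower. The part of these markers in the changes was not tested.

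By day 2 the direction had turned. In KO 26 of the 28 genes were higher than in WT and none was called lower (median 0.37; 37.5% of all genes higher and 21.3% lower, median 0.09). All 8 later sterol genes, all 7 mevalonate genes and all 4 sensors and factors were among them. On rescaling, 22 of the 28 genes were higher and 2 lower (median 0.26). The 18 enzymes summed to 694 and 694 FPKM in WT and 1007 and 1008 in KO. Dhcr7, the reductase of the last step to cholesterol, stood at 22.1 and 22.4 FPKM in WT and 56.8 and 55.1 in KO, 2.51 times the WT mean (1.29 ± 0.07 SE, limma adjusted p = 8.24e-12). Pmvk, the phosphomevalonate kinase, had 62.1 and 63.1 in WT against 132 and 133 FPKM in KO (1.07 ± 0.05 SE, limma adjusted p = 1.26e-12). Msmo1 had 53.5 and 52.6 in WT against 111 and 112 FPKM in KO (1.06 ± 0.04 SE, limma adjusted p = 4.43e-14), beside a chromosome 8 median of 0.24. Each KO library of the 3 genes lay above both WT libraries. Extraembryonic endoderm markers summed to 29.2 to 29.5 FPKM in WT and 3.34 to 3.43 in KO on that day. Of 6 neural genes 4 were higher in KO and 1 lower (median 0.59), and of 6 eye field genes 4 were higher and 0 lower (median 0.24). Both of the 2 mesendoderm genes tested were higher, and of 8 pluripotency genes 3 were higher and 1 lower. The part of these markers was not tested.

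Across the 18 sterol enzymes the median gap was widest on day 4, at 0.57 against -0.44, 0.44 and 0.01 on days 0, 2 and 6. This did not hold in each part. The 7 mevalonate genes had medians of -0.37 on day 0 and 0.363 on day 4, and the 3 squalene and lanosterol genes -0.68 and 0.56. In KO 23 genes were higher and 2 lower (median 0.39; all genes 36.5% higher and 24% lower, median 0.07), and the 8 later sterol genes, all higher, had a median of 0.93. The 18 enzymes summed to 1002 and 993 FPKM in WT and 1527 and 1528 in KO, the highest sum of any group. Msmo1 stood at 76.1 and 75 FPKM in WT and 178 and 179 in KO (1.23 ± 0.04 SE, limma adjusted p = 3.14e-15). Mvd had 59.5 and 60.6 in WT against 141 and 142 FPKM in KO (1.22 ± 0.03 SE, limma adjusted p = 9.37e-18). Both lie on chromosome 8, whose genes had a median of 0.34 in this comparison. Dhcr7, on chromosome 7, had 37.4 and 34.9 in WT against 84.3 and 86.6 FPKM in KO (1.22 ± 0.07 SE, limma adjusted p = 1.29e-11). The mevalonate kinase Mvk went the other way, at 44.2 and 43.8 FPKM in WT and 37.5 and 36.5 in KO (-0.24), as did Scd2, at 109 and 110.3 in WT against 97.9 and 99.8 in KO (-0.15). Idi1 was called higher, 83.5 and 80.4 against 78.1 and 77.3 FPKM (0.08), and its sign turned on rescaling (-0.03). On that day 4 of 6 eye field genes were lower in KO and 1 higher (median -0.85; sums of 123 to 125 FPKM in WT and 22 to 22.2 in KO). Pluripotency genes (5 of 8) and extraembryonic endoderm genes (8 of 8) were also lower, with 2 pluripotency genes and 4 of 6 neural genes higher, and their part was not tested.

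On day 6, in KO, 7 genes were higher and 15 lower (median -0.18; all genes 30.9% higher and 34.2% lower, median -0.03). Of the 8 later sterol genes 3 were higher and 1 lower, of the 7 mevalonate genes 2 were higher and 5 lower, and of the 6 fatty acid genes 2 were higher and 4 lower. Of the 4 sensors and factors 3 were lower and none was called higher. Insig1 stood at 43.4 and 44.5 FPKM in WT and 15.5 and 15.8 in KO, 0.356 times the WT mean (-1.43 ± 0.04 SE, limma adjusted p = 5.8e-17). Scd1 had 25.9 and 23.9 in WT against 12.1 and 11.6 FPKM in KO (-1.01 ± 0.09 SE, limma adjusted p = 6.16e-09). Scd2 had 157 and 161 in WT against 88.5 and 87.6 FPKM in KO (-0.85 ± 0.03 SE, limma adjusted p = 2.68e-15). Both KO libraries of the feedback protein and of both desaturases lay below both WT libraries. Higher in KO were Mvd, 63.6 and 64.2 against 38.2 and 37.8 FPKM (0.73, beside a chromosome 8 median of 0.35), Dhcr7, 47.5 and 46.1 against 28.8 and 30.8 (0.64), and Tm7sf2, 18.1 and 18.5 against 12.9 and 12.3 (0.51). On the same day 5 of 6 eye field genes, 7 of 8 pluripotency genes and 8 of 8 extraembryonic endoderm genes were lower in KO and 5 of 6 neural genes higher, and their part in these changes was not tested.

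**Figure D3:**
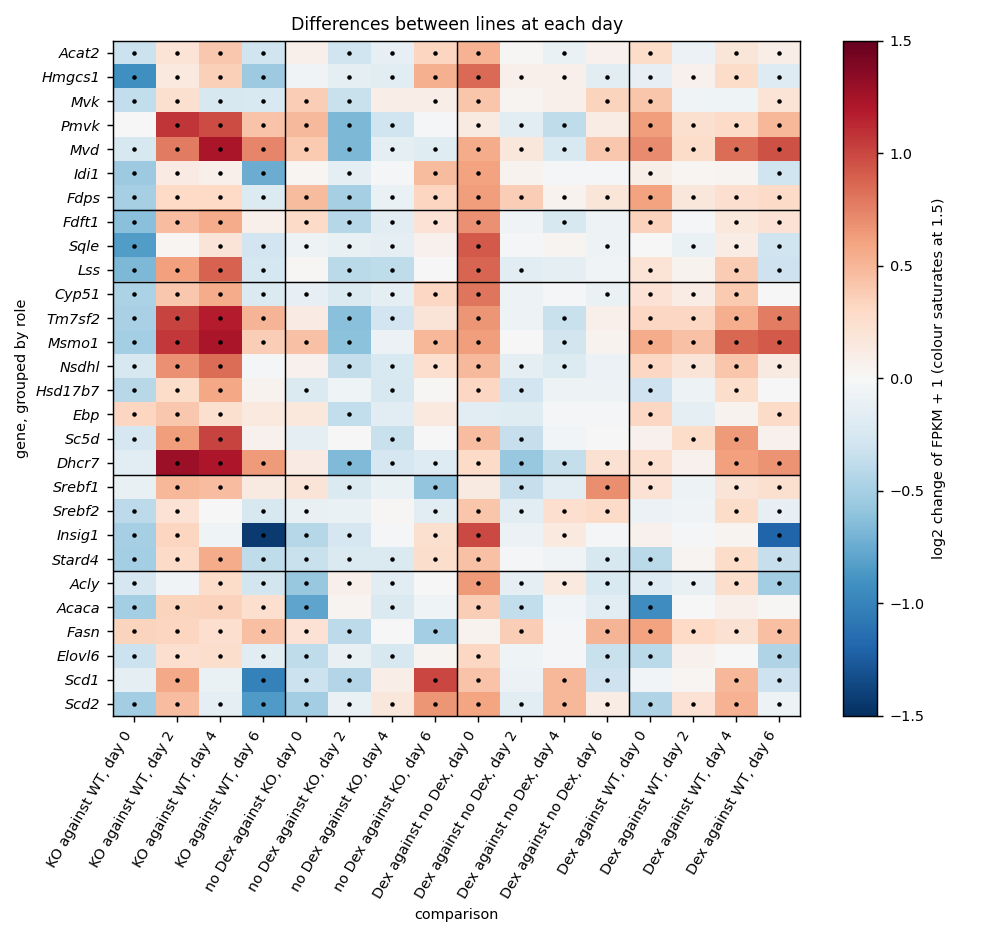
Log2 changes on the log2(FPKM + 1) scale (colour) of the 28 genes (rows, by role) in the comparisons between lines (columns, by day), with dots marking limma adjusted p under 0.05. The KO against WT columns go from mostly lower on day 0 (median -0.40) to mostly higher on day 2 (median 0.37), and the Dex against no Dex column is mostly higher on day 0 (median 0.50).

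The turn between days was tested as an interaction, the KO minus WT change of the later day minus that of day 0. The interaction of day 2 was added after the data were seen, so it measures a turn already noticed. Between day 0 and day 2 it was positive for 26 of the 28 genes and called negative for none (median 0.83), where 35.6% of all genes were positive and 13.2% negative (median 0.14). Rescaling gave 25 positive and 1 negative (median 0.69). The largest values were those of Msmo1 (1.57 ± 0.06 SE, limma adjusted p = 1.16e-13), Tm7sf2 (1.497 ± 0.11 SE, limma adjusted p = 2.4e-09) and Dhcr7 (1.45 ± 0.10 SE, limma adjusted p = 7.99e-10). Between day 0 and day 6, 19 were positive and 4 negative (median 0.25; all genes 31.1% higher and 25.8% lower, median 0.02). Tm7sf2 (0.99), Mvd (0.97) and Msmo1 (0.88) had the largest positive values, and Insig1 (-0.93), Scd1 (-0.86) and Scd2 (-0.33) the largest negative ones. The fourth gene called negative was Idi1 (-0.20), an isomerase of the mevalonate steps, named after its values were seen. Msmo1 and Mvd lie on chromosome 8, whose median KO minus WT change was 0.005, 0.24 and 0.35 on days 0, 2 and 6.

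The fusion line without dexamethasone was next compared with KO. In the stem cells of day 0, 8 of the 28 genes were higher and 11 lower (median 0.02; 19.3% of all genes higher and 29.8% lower, median -0.03), and the split became 15 and 6 on rescaling. Of the mevalonate genes 4 of 7 were higher and none was called lower, and of the 6 fatty acid genes 1 was higher and 5 were lower. Pmvk stood at 85.6 and 85.7 FPKM in KO and 120.1 and 121 without Dex (0.49 ± 0.05 SE, limma adjusted p = 1.37e-07), Fdps at 162 and 164 in KO against 222 and 233 without Dex (0.48), and Msmo1 at 57.5 and 58.7 in KO against 79.9 and 78.1 without Dex (0.44). The carboxylase Acaca fell from 9.78 and 9.95 FPKM in KO to 5.47 and 5.13 (-0.79 ± 0.06 SE, limma adjusted p = 1.56e-09), Acly from 78 and 81 to 52.9 and 53.2 (-0.57) and Scd2 from 46.4 and 47.4 to 32.8 and 31.9 (-0.52). The groups of all 6 genes were separate. Sqle, Cyp51 and Srebf2, called lower here at -0.08, -0.12 and -0.11, changed sign on rescaling, to 0.05, 0.005 and 0.02. Of 8 pluripotency genes 1 was higher and 4 were lower on this day, and their part was not tested.

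On days 2 and 4 the fusion line without Dex was below KO. On day 2, 23 genes were lower and 1 higher (median -0.28; all genes 22.2% lower and 14.8% higher, median -0.04). Mvd had 78.1 and 76.3 FPKM in KO and 47.8 and 47.9 without Dex (-0.68 ± 0.03 SE, limma adjusted p = 4.92e-12), Pmvk 132 and 133 in KO against 85 and 81 without Dex (-0.67), and Dhcr7 56.8 and 55.1 in KO against 34.8 and 35.3 without Dex (-0.66). Acly, at 76.4 and 74.5 in KO against 78.8 and 81.1 FPKM without Dex, was called higher by only 0.08, and lost the call without the KO day 2 replicate 2 (adjusted p = 0.123), without the no Dex day 2 replicate 2 (adjusted p = 0.133) and with the 2 groups fitted alone (adjusted p = 0.104). On day 4, 18 were lower and 1 higher (median -0.15; all genes 17% lower and 9.66% higher, median -0.03). Lss went from 33.1 and 31.7 to 24.6 and 24.9 FPKM (-0.38), Sc5d from 22.2 and 21.6 to 17.1 and 17.2 (-0.34) and Pmvk from 160.02 and 161 to 129.99 and 129 (-0.30). Scd2 alone was higher, 111 and 113 against 97.9 and 99.8 FPKM (0.17). On day 4, 3 of 6 eye field genes were higher without Dex than in KO (median 0.59) and 3 of 8 pluripotency genes lower, with 2 higher, and their part was not tested. These comparisons share the KO libraries with those of KO against WT, in which the genes named as lower here stood above WT: the changes of Dhcr7 on day 2, for example, were 1.29 in KO minus WT and -0.66 in no Dex minus KO.

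On day 6 the fusion line without Dex had more than KO of 13 genes and less of 5 (median 0.12; all genes 21.1% higher and 27.9% lower, median -0.01). Scd1 had 12.1 and 11.6 FPKM in KO and 24.5 and 25 without Dex (1.005 ± 0.09 SE, limma adjusted p = 1.69e-08), Scd2 88.5 and 87.6 in KO against 140.3 and 139 without Dex (0.66) and Hmgcs1 66.2 and 67.7 in KO against 98.2 and 96.2 without Dex (0.53). Srebf1 went down from 32.1 and 33.1 to 20.3 and 22.4 FPKM (-0.59 ± 0.07 SE, limma adjusted p = 5.63e-07) and Fasn from 137 and 141 to 98.5 and 96.1 (-0.51). The libraries of these 5 genes did not overlap. Dhcr7 had 47.5 and 46.1 in KO against 41.1 and 40.6 FPKM without Dex (-0.19), a call lost without any one of the 4 libraries (adjusted p from 0.0577 to 0.129) and with no filter on low values (adjusted p = 0.0522). On that day 4 of 6 eye field genes were higher without Dex than in KO (median 0.51; sums of 117 to 118 FPKM in KO and 182.32 to 186 without Dex). Of 8 pluripotency genes 4 were higher and 2 lower, and their part was not tested.

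With dexamethasone, the stem cells of the fusion line held more of nearly all of these RNAs. On day 0, 25 of the 28 genes were higher than without Dex and none was called lower (median 0.50; 27.3% of all genes higher and 16.1% lower, median 0.04). All 7 mevalonate genes, all 3 squalene and lanosterol genes, 7 of 8 later sterol genes, 3 of 4 sensors and factors and 5 of 6 fatty acid genes were higher. On rescaling, 24 of the 28 genes were higher and 1 lower (median 0.42). The 18 enzymes summed to 848 and 858 FPKM without Dex and 1250.4 and 1249 with it. Insig1 stood at 16.7 and 18 FPKM without Dex and 36.2 and 34.6 with it, 2.04 times the mean without Dex (0.99 ± 0.04 SE, limma adjusted p = 5.68e-13). Sqle had 24.1 and 24.8 without Dex against 47.2 and 47.3 FPKM with Dex (0.92 ± 0.03 SE, limma adjusted p = 5.09e-14). Lss had 11.7 and 12.4 without Dex against 22.7 and 22.9 FPKM with Dex (0.87 ± 0.06 SE, limma adjusted p = 1.31e-09). Both libraries with Dex lay above both without in each of them. Of 6 genes known to respond to glucocorticoids, 5 were higher on this day (median 0.31). Their sums on day 0 were 126 to 127 FPKM without Dex and 188 to 189 with it. In WT, which had no Dex, they were 221 to 229 FPKM, and in KO 161 to 164, with 4 of 6 lower than in WT. The link of these genes to the sterol genes was not tested.

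On day 0 no library stands in both the KO against WT and the Dex against no Dex comparison. Of the 22 genes lower in KO, all 22 (100%) were higher with Dex, and they made up 88% of the 25 genes higher with Dex. Among all genes tested, 61.4% of the 4849 lower in KO were higher with Dex, and 66.9% of the 4449 higher with Dex were lower in KO, so opposite calls were frequent well beyond these pathways. Hmgcs1 had -0.92 in the first comparison and 0.84 in the second, and Sqle -0.84 and 0.92.

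**Figure D4:**
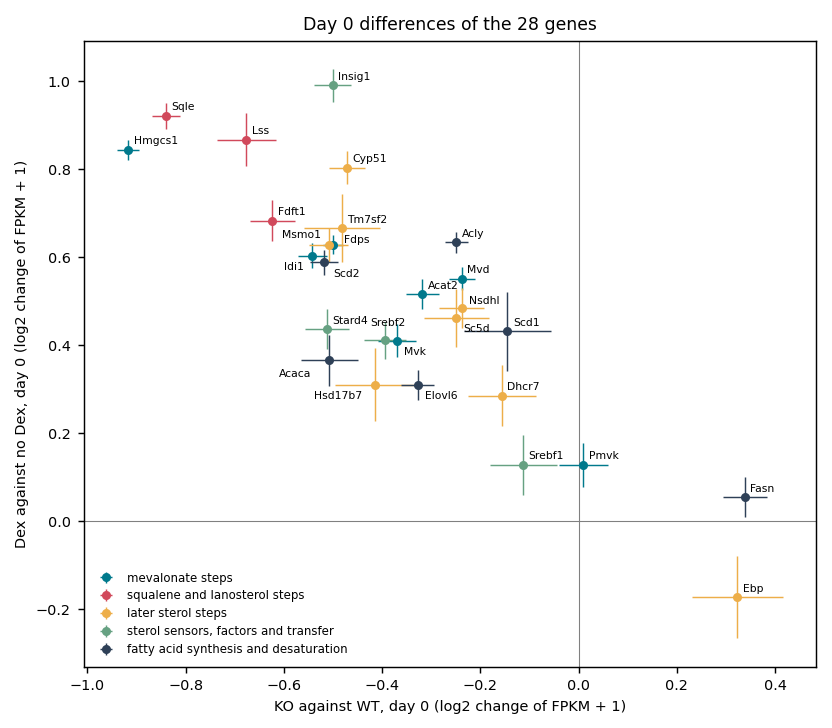
Log2 change of each of the 28 genes on day 0 in KO against WT (horizontal axis) and in Dex against no Dex (vertical axis), both on the log2(FPKM + 1) scale, with bars for the SE. Most points lie to the upper left, as Hmgcs1 (-0.92 and 0.84) and Sqle (-0.84 and 0.92) do.

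In the organoids the difference with Dex was small and mixed. On day 2, 4 genes were higher and 11 lower (median -0.09; all genes 12.7% higher and 31.5% lower, median -0.08), close to the background, and rescaling gave 9 and 4 with a median of 0.02. Dhcr7 had 34.8 and 35.3 FPKM without Dex and 23.7 and 23 with it (-0.57 ± 0.07 SE, limma adjusted p = 2.01e-06), Acaca 9.65 and 10.02 without Dex against 7.52 and 7.24 with Dex (-0.37) and Srebf1 31.2 and 34.4 without Dex against 25.7 and 25.3 with Dex (-0.35). Fasn was higher with Dex, 147 and 146 against 111 and 115 FPKM (0.37), as were Fdps, 189.5 and 192 against 147 and 148 (0.37), and Mvd, 53.6 and 54.4 against 47.8 and 47.9 (0.17). In this comparison Fasn and Srebf1, a transcription factor known to control it, went in opposite directions. On that day 7 of 8 pluripotency genes were lower with Dex and 5 of 8 extraembryonic endoderm genes higher, and their part was not tested.

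On day 4, 7 genes were higher with Dex and 8 lower (median -0.04; all genes 18.3% higher and 21.9% lower, median -0.01). Scd1 stood at 28.6 and 26.6 FPKM without Dex and 39.8 and 39.2 with it (0.50 ± 0.09 SE, limma adjusted p = 0.000158), Scd2 at 111 and 113 without Dex against 158 and 158 with Dex (0.49) and Srebf2 at 61.2 and 62.5 without Dex against 77 and 70.5 with Dex (0.25). Pmvk fell from 129.99 and 129 to 97 and 102 FPKM (-0.38) and Dhcr7 from 70.7 and 72.8 to 54.7 and 57.1 (-0.35). Tm7sf2 fell from 25.4 and 24.8 to 21.1 and 18.5 FPKM (-0.33), a call lost with the 2 groups fitted alone (adjusted p = 0.0535). The libraries of these 6 genes did not overlap. Of the 7 mevalonate genes 2 were higher and 3 lower, and of the 8 later sterol genes 4 were lower and none was called higher. The 2 higher mevalonate genes, named after their values were seen, were Hmgcs1 (0.08) and Fdps (0.06). Hmgcs1 lost its call with the 2 groups alone (adjusted p = 0.0924), without the no Dex day 4 replicate 1 (adjusted p = 0.0733) and without the Dex day 4 replicate 2 (adjusted p = 0.161). Fdps lost its call with the groups alone (adjusted p = 0.0839), with no filter on low values (adjusted p = 0.0595) and without any one of the 4 libraries (adjusted p from 0.0533 to 0.232). On this day 4 of 6 eye field genes were higher with Dex (median 1.92; sums of 60.6 to 61.4 FPKM without Dex and 309.9 to 310.4 with it), as were 4 of 8 extraembryonic endoderm genes. Of 8 pluripotency genes 3 were higher and 4 lower, and the part of these markers was not tested. Of the 23 genes higher in KO than in WT on day 4, 8 (34.8%) were lower with Dex, which made up all 8 genes lower with Dex. Among all genes tested the shares were 43.2% of those higher in KO and 72% of those lower with Dex.

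On day 6, 8 genes were higher with Dex and 8 lower (median -0.01; all genes 23.8% higher and 19% lower, median 0.01). Srebf1 had 20.3 and 22.4 FPKM without Dex and 35.5 and 34.7 with it (0.69 ± 0.07 SE, limma adjusted p = 1.07e-07), Fasn 98.5 and 96.1 without Dex against 141 and 136 with Dex (0.51) and Mvd 56 and 56.6 without Dex against 73.8 and 75.7 with Dex (0.40). Elovl6 had 10.2 and 10.3 without Dex and 7.75 and 8.02 with it (-0.34), Scd1 24.5 and 25 without Dex against 19.7 and 19.9 with Dex (-0.31) and the sterol carrier Stard4 8.54 and 8.24 without Dex against 6.98 and 6.95 with Dex (-0.24). Of the 6 fatty acid genes 2 were higher and 4 lower. The second higher one was Scd2, at 140.3 and 139 FPKM without Dex against 150.4 and 151 with Dex (0.11), named after its values were seen. Eye field genes (5 of 6), extraembryonic endoderm genes (6 of 8) and pigment cell genes (all 4 tested) were higher with Dex on this day, and their part was not tested. Of the 15 genes lower in KO than in WT on day 6, 26.7% were higher with Dex and 46.7% lower with Dex, where the shares among all genes lower in KO were 29% and 19.6%.

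The difference with Dex depended on the day. Here too the interaction of day 2 was added after the data were seen. The interaction of Dex against no Dex between day 0 and day 2 was negative for 26 of the 28 genes and positive for 1 (median -0.61; all genes 32.4% negative and 12.6% positive, median -0.12). Insig1 (-1.08 ± 0.05 SE, limma adjusted p = 2.58e-11), Lss (-1.02) and Sqle (-0.94) had the largest negative values, and Fasn alone was called positive (0.32). Between day 0 and day 6, 21 were negative and 2 positive (median -0.55; all genes 25.9% lower and 22.7% higher, median -0.01). Hmgcs1 (-1.02), Insig1 (-1.005) and Sqle (-1.0) had the largest negative values, and Srebf1 (0.57) and Fasn (0.45) were positive.

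Set against WT, the fusion line with Dex had more of the 18 sterol enzymes higher than lower on every day: 14, 9, 15 and 11 higher and 2, 1, 0 and 4 lower on days 0, 2, 4 and 6. On day 0, 16 of the 28 genes were higher and 7 lower (median 0.21; all genes 19% higher and 30.8% lower, median -0.04). Mvd had 61.9 and 66.5 FPKM in WT and 104 and 107 with Dex (0.71 ± 0.03 SE, limma adjusted p = 2.26e-13), Pmvk 77.9 and 93.1 in WT against 134 and 129.6 with Dex (0.63) and Fdps 231 and 229.8 in WT against 353 and 351 with Dex (0.61). Acaca was lower, 7.05 and 7.18 against 14.1 and 14.8 FPKM (-0.93 ± 0.06 SE, limma adjusted p = 2.05e-10), as were Scd2, 48.6 and 49.7 against 70.7 and 64.7 (-0.45), and Stard4, 6.6 and 6.04 against 9.13 and 8.29 (-0.41). Of the 7 mevalonate genes 6 were higher and 1 was lower, Hmgcs1, 73.9 and 72.1 against 79.9 and 79.2 FPKM (-0.12), which was named after its values were seen. Its call was lost on rescaling (adjusted p = 0.1) and with the 2 groups alone (adjusted p = 0.0536). Extraembryonic endoderm genes were lower with Dex than in WT on days 0, 2 and 4 (5, 8 and 8 of 8), as were 2, 5 and 7 of 8 pluripotency genes, and their part was not tested. With the 2 groups fitted alone, 13 of the 23 calls were made, 8 higher and 5 lower.

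On day 2, 11 genes were higher with Dex than in WT and 2 lower (median 0.05; all genes 12.2% higher and 17.2% lower, median -0.01), and the 2 groups fitted alone gave 6 higher and none lower. Msmo1 stood at 53.5 and 52.6 FPKM in WT and 71.2 and 73.2 with Dex (0.44 ± 0.04 SE, limma adjusted p = 8.24e-08), and Fasn at 120.2 and 118 in WT against 147 and 146 with Dex (0.30). Tm7sf2, at 9.22 and 8.49 in WT against 11.5 and 10.9 FPKM with Dex (0.31), lost its call without the WT day 2 replicate 2 (adjusted p = 0.0655), without the Dex day 2 replicate 1 (adjusted p = 0.0543) and with the groups alone (adjusted p = 0.0588). The 2 lower genes were near the threshold. Acly had 78.2 and 78.2 in WT against 71.2 and 73.4 FPKM with Dex (-0.11; adjusted p = 0.0561 with the groups alone). Sqle had 36.7 and 37 in WT against 34.1 and 34.5 FPKM with Dex (-0.10), and lost its call on rescaling (adjusted p = 0.054), with the groups alone (adjusted p = 0.0557), without the WT day 2 replicate 2 (adjusted p = 0.0619) and without the Dex day 2 replicate 1 (adjusted p = 0.0694).

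On day 4, 22 genes were higher with Dex than in WT and none was called lower (median 0.27; all genes 25.7% higher and 19.1% lower, median 0.03). Rescaling gave 19 higher and 1 lower (median 0.23). Msmo1 had 76.1 and 75 FPKM in WT and 139.6 and 137 with Dex (0.86 ± 0.04 SE, limma adjusted p = 1.95e-12) and Mvd 59.5 and 60.6 in WT against 107 and 109.9 with Dex (0.84), beside a chromosome 8 median of 0.31, and Sc5d had 9.87 and 10.8 in WT against 16.7 and 16.5 with Dex (0.64). On day 4, 4 of 6 eye field genes were also higher (median 1.003), and their part was not tested. On day 6, 13 were higher and 11 lower (median 0.04; all genes 29.2% higher and 32.2% lower, median -0.02). Mvd stood at 38.2 and 37.8 in WT and 73.8 and 75.7 with Dex (0.96 ± 0.03 SE, limma adjusted p = 2.8e-16), Msmo1 at 61 and 61.1 in WT against 118 and 115 with Dex (0.93), with a chromosome 8 median of 0.35, and Tm7sf2 at 12.9 and 12.3 in WT against 21 and 23.5 with Dex (0.77). Insig1 was at 43.4 and 44.5 FPKM in WT and 18.2 and 18.7 with Dex (-1.21 ± 0.04 SE, limma adjusted p = 1.59e-15), Acly at 77.8 and 78 in WT against 53.6 and 54.5 with Dex (-0.52) and Elovl6 at 11.3 and 11 in WT against 7.75 and 8.02 with Dex (-0.46). Insig1 on day 6 was below WT both in KO (-1.43) and with Dex (-1.21), comparisons that share the WT libraries. Extraembryonic endoderm markers, 50.4 to 51.7 FPKM in WT and 5.87 to 5.93 with Dex, differed alongside, as did 5 of 6 eye field genes and 8 of 8 pluripotency genes that were lower, and their part was not tested.

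Over the first days most of the genes rose in KO. From day 0 to day 2 of KO, 22 genes rose and 3 fell (median 0.45; all genes 37.2% higher and 28.5% lower, median 0.06). Dhcr7 went from 28.8 and 27.7 to 56.8 and 55.1 FPKM (0.96 ± 0.07 SE, limma adjusted p = 2.62e-10), Msmo1 from 57.5 and 58.7 to 111 and 112 (0.93) and Scd1 from 9.62 and 11.5 to 19.6 and 19.5 (0.84). Elovl6 fell from 21.4 and 22.3 to 10.7 and 11.1 (-0.95) and Ebp from 20.03 and 23.6 to 11.7 and 11.6 (-0.85), as they did in WT. Acly, from 78 and 81 to 76.4 and 74.5 FPKM (-0.07), lost its call without the KO day 0 replicate 2 (adjusted p = 0.168), without the KO day 2 replicate 2 (adjusted p = 0.113) and with the groups alone (adjusted p = 0.117). From day 2 to day 4, 25 rose and 1 fell (median 0.55; all genes 35.5% higher and 28.7% lower, median 0.03). Hmgcs1 went from 68.7 and 69 to 146 and 146 FPKM (1.07 ± 0.02 SE, limma adjusted p = 4.8e-18), the sterol dehydrogenase Nsdhl from 17.9 and 18.8 to 36.7 and 37.6 (0.98) and Sc5d from 11.5 and 10.8 to 22.2 and 21.6 (0.91). Srebf2 had 64.8 and 66.2 on day 2 against 60.5 and 61.3 FPKM on day 4 (-0.10), a call lost without any one of the 4 libraries (adjusted p from 0.063 to 0.17) and with no filter (adjusted p = 0.0685).

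From day 4 to day 6 of KO, 27 genes fell and none was called higher (median -0.79; 30.5% of all genes fell and 34.9% rose, median 0.01). Lss fell from 33.1 and 31.7 to 10.7 and 10.9 FPKM (-1.501 ± 0.06 SE, limma adjusted p = 3.39e-14), Fdps from 294 and 294 to 116 and 112 (-1.36) and the isopentenyl isomerase Idi1 from 83.5 and 80.4 to 35.8 and 36 (-1.17). Day 4 was the highest of the 4 days for 24 of the 28 genes in KO, and day 0 the lowest for 17.

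Without Dex, the fusion line also peaked on day 4, for 24 of the 28 genes. From day 0 to day 2, 13 genes rose and 11 fell (median 0.13; all genes 41.4% higher and 26.5% lower, median 0.10), and rescaling gave 10 and 14 with a median of -0.06. Scd2 went from 32.8 and 31.9 to 61.6 and 60.7 FPKM (0.90 ± 0.03 SE, limma adjusted p = 9.22e-16), Acaca from 5.47 and 5.13 to 9.65 and 10.02 (0.78) and Scd1 from 7.09 and 9.39 to 14.3 and 13.9 (0.72). Ebp fell from 23.6 and 25.2 to 9.29 and 8.32 (-1.38 ± 0.09 SE, limma adjusted p = 1.08e-10), Elovl6 from 16.8 and 16.2 to 10.02 and 9.84 (-0.68) and Fdps from 222 and 233 to 147 and 148 (-0.62). Dhcr7, called higher at 0.18, had -0.01 on rescaling. From day 2 to day 4, 27 rose and none was called lower (median 0.67; all genes 33.7% higher and 27.1% lower, median 0.03), with Mvd going from 47.8 and 47.9 to 129 and 126 FPKM (1.40 ± 0.03 SE, limma adjusted p = 5.56e-19), Msmo1 from 75.8 and 69.8 to 170.01 and 165 (1.19) and Nsdhl from 14.3 and 13.8 to 30.8 and 32.4 (1.11). From day 4 to day 6, 22 fell and 1 rose (median -0.53; all genes 31.1% lower and 36.8% higher, median 0.03). Mvd fell from 129 and 126 to 56 and 56.6 (-1.17 ± 0.03 SE, limma adjusted p = 3.98e-18), Lss from 24.6 and 24.9 to 10.5 and 11.1 (-1.13) and Fdps from 277 and 273 to 142 and 143 (-0.94). Scd2 alone rose, from 111 and 113 to 140.3 and 139 FPKM (0.32), as it did in WT.

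With Dex, the fusion line began with a fall, as WT did. From day 0 to day 2, 22 genes fell and 2 rose (median -0.59; all genes 31.4% lower and 29.2% higher, median 0.00). Ebp fell from 20.4 and 22.8 to 7.82 and 7.52 FPKM (-1.38 ± 0.09 SE, limma adjusted p = 1.2e-10), Elovl6 from 20.7 and 20.8 to 9.66 and 9.18 (-1.06) and Tm7sf2 from 22.4 and 23.9 to 11.5 and 10.9 (-0.98). These are the 3 genes with the largest falls in WT as well. Scd2 rose from 48.6 and 49.7 to 54.7 and 55 (0.16) and Stard4 from 6.6 and 6.04 to 7.27 and 7.74 (0.22), the latter not with the groups alone (adjusted p = 0.0722). From day 2 to day 4 all 28 genes rose (median 0.64; all genes 40.9% higher and 25.8% lower, median 0.09). Scd1 went from 13.4 and 13 to 39.8 and 39.2 FPKM (1.51 ± 0.09 SE, limma adjusted p = 1.53e-11), Scd2 from 54.7 and 55 to 158 and 158 (1.51) and Dhcr7 from 23.7 and 23 to 54.7 and 57.1 (1.23). From day 4 to day 6, 21 fell and 1 rose (median -0.40; all genes 27.7% lower and 37.4% higher, median 0.04). Lss fell from 23 and 21.9 to 10.2 and 10.6 (-1.04 ± 0.06 SE, limma adjusted p = 9.85e-12), Scd1 from 39.8 and 39.2 to 19.7 and 19.9 (-0.96) and Insig1 from 35.5 and 37.8 to 18.2 and 18.7 (-0.95), where Insig1 of WT rose over the same days. The thiolase Acat2 was the gene that rose, from 89.3 and 89.1 to 97.2 and 97.1 (0.12), a call lost on rescaling (adjusted p = 0.0988).

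**Figure D5:**
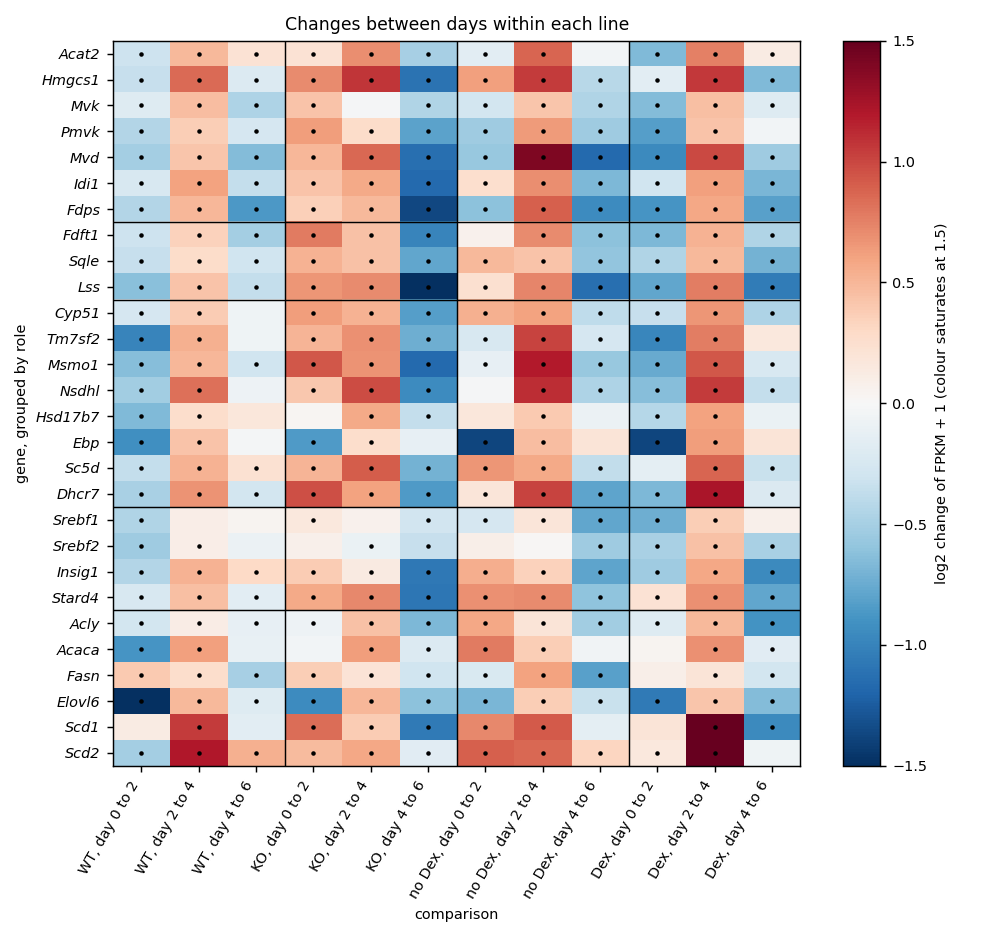
Log2 changes on the log2(FPKM + 1) scale (colour) of the 28 genes (rows, by role) between successive days (columns, by line), with dots marking limma adjusted p under 0.05. Day 2 to day 4 is mostly a rise in all 4 lines (medians 0.48, 0.55, 0.67 and 0.64 in WT, KO, no Dex and Dex), while day 0 to day 2 is mostly a fall in WT (-0.44) and Dex (-0.59) and mostly a rise in KO (0.45).

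How alike the 28 genes moved was described by correlating each gene's standardised group means with the mean of the other 27 genes over the 16 groups, which share lines and days and so carry no test. The median Pearson r was 0.741, and 15 genes were above 0.7. Fdft1 (0.904), Cyp51 (0.904), Nsdhl (0.896), Lss (0.877) and Msmo1 (0.849) were most like the rest. Ebp (0.082) and Elovl6 (0.247) were least like them, and Srebf2 (0.428) and Srebf1 (0.44), the factors of the pathway, were also low. With the mean of each day removed the median was 0.672. Cyp51 then had 0.963 and Lss 0.943, while Fasn dropped to 0.064. Srebf2 then had 0.623 and Srebf1 0.519, nearer the median than before.

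Other genes of sterol and fatty acid handling were followed as lists in KO against WT, where the median of all genes was -0.04, 0.09, 0.07 and -0.03 on days 0, 2, 4 and 6. Of all genes, 18.4%, 37.5%, 36.5% and 30.9% were higher on these days and 29.8%, 21.3%, 24% and 34.2% lower. The counts of these short lists are to be read beside those shares, near which several of them lie. The 4 genes that process or retain SREBP had medians of -0.37, 0.08, 0.52 and 0.14. All 4 were lower on day 0 and 3 were higher on day 4. Scap, which escorts SREBP out of the endoplasmic reticulum, changed by -0.40 on day 0 and 0.61 on day 4. The protease gene Mbtps1, which lies on chromosome 8, changed by 0.82 on day 4 and 0.85 on day 6, beside chromosome medians of 0.34 and 0.35.

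The 6 genes of sterol uptake and storage had medians of -0.12, 0.67, 0.65 and 0.04, and the same number, 4, were higher on day 2 and on day 4, with none called lower. The lipoprotein receptors Lrp8 (0.77 on day 2, 1.21 on day 4) and Vldlr (0.84 and 1.07), the receptor Scarb1 (0.99 and 0.39) and the lysosomal lipase Lipa (0.57 and 0.90) were the 4 on both days. The 6 genes around LXR, a receptor activated by oxidised sterols, had medians of -0.20, 0.16, -0.07 and -0.27. Of these 4 were lower on day 0, 3 higher on day 2, and 4 lower and 1 higher on day 6. The cholesterol exporter Abca1, a target of LXR, changed by -0.68 on day 0 and -1.03 on day 6, and Nr1h3, which encodes LXR alpha, by 0.92 on day 6.

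The 10 further genes of fatty acid and lipid synthesis had medians of -0.12, 0.25, 0.07 and -0.13, with 4 lower and 1 higher on day 0, 7 higher on day 2, 5 higher and 1 lower on day 4, and 5 lower and 1 higher on day 6. On day 6 Me1, which supplies NADPH, changed by -1.18 and the acetyl-CoA synthetase Acss2 by -0.85. With Dex against no Dex on day 0, 7 of these 10 were higher, Acss2 among them at 0.68, and none was called lower (median 0.18). Of all genes 27.3% were higher and 16.1% lower in that comparison (median 0.04).

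The 7 genes of the isoprenoid branch, which leaves the sterol pathway at farnesyl diphosphate, were split. In KO 4 were higher and 1 lower on day 2 (median 0.22; all genes 37.5% and 21.3%). On day 4, 2 were higher and 2 lower (median -0.01; all genes 36.5% and 24%). The 8 genes of fatty acid oxidation were split too. On day 0, 4 were lower and 1 higher (median -0.13; all genes 29.8% and 18.4%). On day 6, 3 were higher and 2 lower (median -0.06; all genes 30.9% and 34.2%). Cpt1a, which admits fatty acids to oxidation in mitochondria, changed by -0.89 on day 6.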

How the data were processed

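The deposited table gives FPKM for each gene and library, and these FPKM values were made by the authors with STAR, Cuffdiff and the mm10 genome, per the submitters' processing notes, which give no versions. Duplicates were not pooled. FPKM was tested as log2(FPKM + 1) with limma 3.58.1 in R 4.3.3, in 1 fit of 16 group means (16 residual degrees of freedom, variance trended on level) over the 16276 genes with at least 1 FPKM in at least 2 of 32 libraries, with Benjamini-Hochberg adjustment over all of them for each of 30 comparisons. The 2 interactions of day 2 were added after seeing the data. The fit was tested on simulated data with 200 changed genes. Sums, ranges and figures were made with Python 3.11.15.

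Counts were not among the files used here. Low FPKM values were steps of whole fragments for 85.6% to 88.6% of values (within 0.2 of a whole number, where 40% would be by an even spread), after a correction of gene length by 265 to 300 bases, which gave the depth estimates. No count test was run on them. Gene IDs of 99.37% of rows were found in GENCODE M21. Promoters are RefSeq's on GRCm38.p6.

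The genes and lists were chosen with earlier results of these data known. The genes named in each comparison are the 3 largest called rises and the 3 largest called falls. The library names share 1 prefix, and the sample labels used here name no batch. Replicate numbers did not pair the libraries: deviations of same-numbered libraries from their group means had correlations of -0.242 to 0.26 (median -0.007) over the 120 pairs of groups, 16 of them over 0.1. Alternatives were a pseudocount of 0.1, no filter, rescaling by median of ratios, a replicate block, the compared groups fitted alone, and leaving out each library. Mesendoderm genes T, Mixl1 and Mesp1, the pigment genes Tyr and Tyrp1 and the near copy Idi2 did not pass the filter.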

Additional observations from a re-analysis of the deposited data

Results flagged for a closer look

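The change of KO against WT, and that of Dex against no Dex, differed between days by a test of the difference itself (limma, adjusted over all genes). The tests of day 2 against day 0 were added after the data were seen. Between day 0 and day 2, the KO minus WT change differed for 26 of the 28 genes, by 1.57 for Msmo1, 1.497 for Tm7sf2 and 1.45 for Dhcr7 on the log2 scale; of all genes tested, 35.6% differed upward and 13.2% downward. Between day 0 and day 6 it differed for 23, by 0.99 for Tm7sf2, 0.97 for Mvd, 0.88 for Msmo1, -0.93 for Insig1, -0.86 for Scd1 and -0.33 for Scd2, where 31.1% of all genes differed upward and 25.8% downward. Msmo1 and Mvd lie on chromosome 8, whose median KO minus WT change was 0.005, 0.24 and 0.35 on days 0, 2 and 6.

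The Dex minus no Dex change differed between day 0 and day 2 for 27 of the 28 genes, by 0.32 for Fasn, -1.08 for Insig1, -1.02 for Lss and -0.94 for Sqle, where 12.6% of all genes differed upward and 32.4% downward. Between day 0 and day 6 it differed for 23, by 0.57 for Srebf1, 0.45 for Fasn, -1.02 for Hmgcs1, -1.005 for Insig1 and -1.0 for Sqle, where 22.7% of all genes differed upward and 25.9% downward. All 4 of these tests share the day 0 libraries in pairs: the KO and WT libraries of day 0 stand in both KO tests, and the Dex and no Dex libraries of day 0 in both Dex tests.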

How the results depend on the processing

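The counts of genes called stayed within 1.5 times in all 32 comparisons under a pseudocount of 0.1, without the filter, on rescaling and with a replicate block. With the compared groups alone they did so in 30; Dex against WT gave 13 on day 0 and 6 on day 2, where the spread rests on 4 libraries. Rescaling turned the sign of Idi1 in KO against WT on day 4 (-0.029), of Sqle (0.048), Cyp51 (0.005) and Srebf2 (0.022) in no Dex against KO on day 0, and of Dhcr7 from day 0 to day 2 without Dex (-0.012); the cause was not tested. It moved the median of all genes by -0.11 to 0.12, by over 0.1 in 4 comparisons. Of 728 single calls, 1 was lost with the pseudocount, 16 without the filter and 73 with the groups alone. Rescaling lost 46 with the sign kept, besides the 5 whose sign turned, which were not called either. Leaving out a library lost 192 of 3308. The libraries share only a number, and a replicate block lost 1 single call and gave 14 higher and 5 lower in no Dex against KO on day 6 and 24 higher in Dex against no Dex on day 0. Leaving out 1 library in turn left 23 to 27 genes called in KO against WT on day 0, 25 to 26 on day 2, 23 to 24 on day 4 and 22 on day 6, and 24 in Dex against no Dex on day 0. Some other comparisons lost more of their calls when a library was left out, among them no Dex against KO on days 0 and 4. With 2 libraries a group, the spread comes from all groups together, and a group left with 1 library is assumed to vary like the others.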
